A study of Homo sapiens with 6 samples.

Results

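RAB GTPases, vesicle coats, tethers and endosomal sorting proteins were examined as a set of genes for DNA G-quadruplexes (G4s) at their ends. The set took protein-coding genes of the autosomes and the X chromosome whose symbol is RAB, VPS or SNX followed by digits and at most 2 letters, or begins with TRAPPC, COPA, COPB, COPG, COPZ, SEC23, SEC24 or EXOC. This gave 174 members of 19821 protein-coding genes. There were 66 genes with RAB symbols, 34 VPS genes, 30 sorting nexins, 17 TRAPP genes, 7 COPI genes, 7 COPII genes and 13 exocyst genes. The symbols also take in a few genes of other function: RAB3IP encodes an exchange factor for RAB proteins, RAB5IF is not a RAB GTPase, and VPS72 encodes a chromatin protein. A gene was called marked in a condition when a G4 peak of that condition lay within 1 kb of either end of the gene.

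BG4, an antibody that binds folded G4s, was used for ChIP-seq (immunoprecipitation of crosslinked chromatin followed by sequencing) in U2OS, a human osteosarcoma cell line. The Ctrl cells received no treatment, and the HD cells received 1,6-hexanediol, an alcohol that dissolves many condensates formed by phase separation. No difference in genotype is named. Each condition had 2 BG4 libraries, labelled as biological replicates, and 1 input library, and a single deposited peak list of each condition was analysed. Every HD peak is named after replicate 1, so the HD list may rest on 1 library. For hexanediol, neither dose nor time is given in the sources used here. With 1 list per condition there is no spread between libraries, so no difference between Ctrl and HD was tested. The lists hold positions and enrichment and no expression, so the identity of the line could not be checked against marker genes.

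RAB proteins are small GTPases that switch between a membrane-bound active form and a cytosolic inactive form, and each marks a particular compartment and recruits tethers, motors and fusion machinery there. COPII coats carry cargo out of the endoplasmic reticulum, COPI coats return it from the Golgi, TRAPP and exocyst complexes tether arriving vesicles, and VPS and SNX proteins sort cargo at endosomes. A G4 is a stack of planar guanine quartets that a guanine-rich strand can fold into, and such sequences are common just upstream of gene starts. Many of the genes in the set are expressed in most cell types.

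The bases before the start are shown for 9 marked genes, because they show the DNA at or next to the peaks and how close relatives differ. The RAB8A Ctrl summit and the VPS35L motif are exceptions, since the summit lay upstream of the bases shown and the motif lay outside both peaks. The sequences are from RefSeq (GRCh38.p14, the assembly of hg38), cover the 250 bases before the annotated start, and are read 5′ to 3′ on the strand of the gene. In the first 6, capitals mark a G4 motif of 4 or more runs of at least 3 G, or of at least 3 C where the G-rich strand is the opposite one, with loops of 1 to 7 bases. RAB10 (chr2:26033834-26034083, plus strand) was marked in both conditions, RAB8B (chr15:63189356-63189605, plus strand) and EXOC1 (chr4:55853398-55853647, plus strand) in Ctrl alone, RAB40C (chr16:589816-590065, plus strand) and VPS35 (chr16:46689179-46689428, minus strand) in HD alone, and VPS35L (chr16:19555453-19555702, plus strand) in both.
RAB10: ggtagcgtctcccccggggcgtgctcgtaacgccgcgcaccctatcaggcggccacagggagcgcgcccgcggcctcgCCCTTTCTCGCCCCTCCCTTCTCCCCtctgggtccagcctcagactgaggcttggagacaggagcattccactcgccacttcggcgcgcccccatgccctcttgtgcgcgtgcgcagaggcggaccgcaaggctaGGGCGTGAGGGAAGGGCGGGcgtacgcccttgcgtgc
RAB8B: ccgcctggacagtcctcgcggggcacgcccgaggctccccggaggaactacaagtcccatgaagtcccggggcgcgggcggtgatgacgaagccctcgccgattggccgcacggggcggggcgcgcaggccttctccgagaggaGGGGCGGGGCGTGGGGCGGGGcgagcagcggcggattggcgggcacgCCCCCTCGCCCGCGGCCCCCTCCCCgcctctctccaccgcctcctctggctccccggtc
EXOC1: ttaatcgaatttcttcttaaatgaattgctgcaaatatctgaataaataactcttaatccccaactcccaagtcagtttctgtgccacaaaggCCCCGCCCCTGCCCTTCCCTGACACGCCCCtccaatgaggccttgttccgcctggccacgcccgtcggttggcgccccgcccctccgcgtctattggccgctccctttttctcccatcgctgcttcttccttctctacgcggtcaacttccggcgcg
RAB40C: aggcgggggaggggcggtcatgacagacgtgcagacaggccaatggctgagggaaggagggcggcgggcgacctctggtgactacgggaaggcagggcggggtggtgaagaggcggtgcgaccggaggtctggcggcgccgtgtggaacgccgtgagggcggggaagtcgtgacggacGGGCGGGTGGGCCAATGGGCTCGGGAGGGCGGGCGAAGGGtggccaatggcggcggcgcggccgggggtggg
VPS35: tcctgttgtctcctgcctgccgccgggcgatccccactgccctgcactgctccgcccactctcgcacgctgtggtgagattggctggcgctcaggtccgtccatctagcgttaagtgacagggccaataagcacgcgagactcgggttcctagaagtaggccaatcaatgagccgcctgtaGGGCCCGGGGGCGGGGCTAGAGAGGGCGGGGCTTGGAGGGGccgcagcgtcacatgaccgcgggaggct
VPS35L: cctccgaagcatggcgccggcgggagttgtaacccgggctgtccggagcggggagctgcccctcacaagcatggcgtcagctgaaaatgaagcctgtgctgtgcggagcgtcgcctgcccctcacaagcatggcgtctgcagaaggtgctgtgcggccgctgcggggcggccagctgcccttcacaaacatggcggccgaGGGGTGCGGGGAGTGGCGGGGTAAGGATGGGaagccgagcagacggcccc

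RAB8A (chr19:16111639-16111888, plus strand) and RAB40B (chr17:82698699-82698948, minus strand) are close relatives of RAB8B and RAB40C, and both were marked in both conditions without holding the motif in this window. Capitals in these 2 sequences mark every run of at least 3 G or 3 C. RAB40B had 10 such runs of G and 5 of C before its start, and RAB8A had 9 and 6.
RAB8A: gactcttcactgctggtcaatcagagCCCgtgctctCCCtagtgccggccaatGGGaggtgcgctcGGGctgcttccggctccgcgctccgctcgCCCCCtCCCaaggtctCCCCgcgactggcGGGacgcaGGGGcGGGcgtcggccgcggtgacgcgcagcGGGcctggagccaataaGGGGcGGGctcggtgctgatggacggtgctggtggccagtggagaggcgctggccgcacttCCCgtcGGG
RAB40B: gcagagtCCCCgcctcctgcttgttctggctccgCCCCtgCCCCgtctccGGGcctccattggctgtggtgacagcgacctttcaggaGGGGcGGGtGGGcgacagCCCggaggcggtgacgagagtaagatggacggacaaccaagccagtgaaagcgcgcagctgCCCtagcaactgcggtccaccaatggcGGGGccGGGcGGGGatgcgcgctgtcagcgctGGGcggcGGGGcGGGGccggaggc

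RAB22A (chr20:58309465-58309714, plus strand) was also marked in both conditions, and most of its upstream bases are an exact tandem repeat. A unit of 20 bases, ccctgcagacaggggcgggg, ran through 8 whole copies over 162 bases. Among protein-coding genes with an annotated start, 22 of 15812 (0.139%) had an exact tandem repeat of 100 bases or more with a unit of 10 to 40 bases in a window of 300 bases, and RAB22A was the 1 such gene among the 138 members with a start. Capitals mark the stretch that holds the G-run motif once loops of up to 12 bases are allowed. With loops of up to 7 bases no motif was found.
RAB22A: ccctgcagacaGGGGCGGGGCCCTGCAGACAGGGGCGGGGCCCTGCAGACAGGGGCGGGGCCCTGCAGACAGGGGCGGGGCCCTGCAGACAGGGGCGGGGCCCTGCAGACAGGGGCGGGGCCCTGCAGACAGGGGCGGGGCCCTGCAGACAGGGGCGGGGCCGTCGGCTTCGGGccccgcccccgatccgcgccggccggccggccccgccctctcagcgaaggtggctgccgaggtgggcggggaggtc

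The share of trafficking genes that were marked was above that of protein-coding genes as a whole in both lists, by more in untreated cells. In Ctrl, 34 of 174 members (19.5%, exact 95% binomial interval 13.9 to 26.2) had a peak at an end, where the share of all protein-coding genes was 10.9%. In HD, 21 members (12.1%, 7.63 to 17.9) were marked, against 8.11% of all protein-coding genes. Both lists marked 14 members (8.05%, 4.47 to 13.1), where 5.2% of all genes were marked in both. A further 20 members (11.5%, 7.16 to 17.2) were marked in Ctrl alone, where the share of all genes was 5.7%, and 7 members (4.02%, 1.63 to 8.11) in HD alone, where it was 2.92%. The remaining 133 members were marked in neither list. These shares were not tested, since genes are not replicates of a condition. The intervals cover counting error only, and the HD interval takes in the share of all genes. They are no test of the set against all genes or of Ctrl against HD. Members were also chosen with earlier results of these data known. The Ctrl list is the longer one, and with the same number of peaks in each list 23 members (13.2%) were marked in Ctrl and 21 (12.1%) in HD, against 7.83% and 8.11% of all protein-coding genes. Members in Ctrl alone then numbered 12 in place of 20 (6.90%, against 3.62% of all genes). Where the annotated start alone was counted, members in HD alone numbered 3 of 138 in place of 7 of 174 (2.17%, against 2.82% of all genes with a start).

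The RAB genes accounted for 18 of the 34 Ctrl marks. Of 66 RAB genes, 18 were marked in Ctrl (27.3%) and 10 in HD (15.2%). VPS genes had 6 of 34 in Ctrl (17.6%) and 7 in HD (20.6%), the 1 family of the 7 with more genes marked in HD. Sorting nexins had 4 of 30 in Ctrl and 3 in HD, and COPI genes had 1 of 7 in each. TRAPP genes (2 of 17) and exocyst genes (3 of 13) were marked in Ctrl and had 0 in HD. The COPII genes had no mark in either list. A count of 0 allows a share of up to 23.1% for the 13 exocyst genes, 17.6% for the 17 TRAPP genes and 42.9% for the 7 COPII genes (3 genes of the total, counting error only), so these zeros cannot be told from the 8.11% of all genes.

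**Figure D1:**
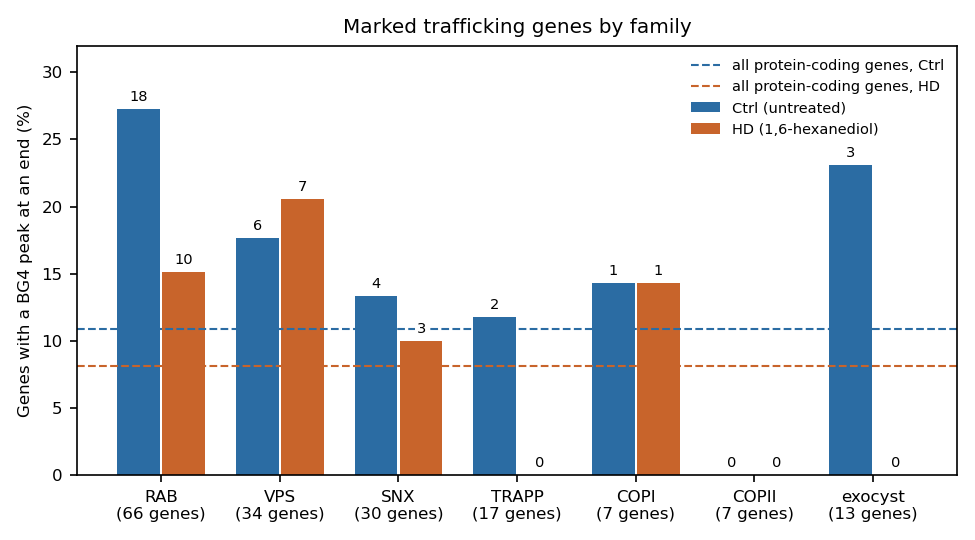
Share of genes of each trafficking family with a BG4 peak within 1 kb of an end (vertical axis, percent), in the Ctrl list (blue bars) and the HD list (orange bars), with the number of marked genes over each bar. Dashed lines give the share of all protein-coding genes, 10.9% in Ctrl and 8.11% in HD. The RAB bar is the tallest in Ctrl at 27.3%, and the COPII genes have no mark in either list.

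The values behind each peak are the authors' fold enrichment, the ChIP fragments over the summit and the fragments expected from input, the last recovered from the deposited fold and p. The ChIP track of HD was deeper, with 27539 fragments per Mb against 19603 in Ctrl, so HD numbers were divided by the depth ratio of 1.40 before they were set against Ctrl numbers. This is called the depth-scaled ratio below, and its exact 95% interval covers counting error only. Outside local increases, 3.74 fragments were expected from input in Ctrl and 5.51 in HD, and the lowest number at a called summit was 15 and 20. Fold enrichment belongs to its own list and is given to describe the peak.

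Members of the RAB8 and RAB10 branch, which act in delivery to the plasma membrane, were marked in both conditions at RAB8A and RAB10. RAB10 had 31 ChIP fragments over its Ctrl summit against 8.63 expected from input, and 45 over its HD summit against 8.68 expected. Its summits, in the peaks at chr2:26033827-26034172 in Ctrl (fold 3.30) and chr2:26033826-26034123 in HD (fold 4.60), lay 58 and 69 bp upstream of the nearest annotated start. The Ctrl summit lay between the 2 motifs printed above. The depth-scaled HD to Ctrl ratio of RAB10 was 1.03 (0.640 to 1.69). RAB8A had 30 ChIP fragments over its Ctrl summit against 3.74 expected from input, and 32 over its HD summit against 5.60 expected. The summits of the peaks at chr19:16111396-16111832 in Ctrl (fold 6.45) and chr19:16111413-16111865 in HD (fold 4.77) lay 284 and 241 bp upstream of the nearest annotated start. Its depth-scaled ratio was 0.759 (0.447 to 1.29), so the lower value in HD is within counting error for RAB8A, and RAB10 was level. RAB8B, the paralogue of RAB8A, was marked in Ctrl alone, with 31 fragments against 6.58 expected from input (fold 4.19, chr15:63189384-63189603), and the nearest HD peak was 31.8 kb away. RAB13, of the same branch, was marked in neither list.

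RAB1A and RAB6A, which act at the Golgi, were both marked in both conditions. RAB1A, needed for transport from the endoplasmic reticulum to the Golgi, had 30 ChIP fragments over its Ctrl summit against 9.71 expected from input, and 42 over its HD summit against 18.2 expected. Its peaks were at chr2:65130022-65130458 in Ctrl (fold 2.88) and chr2:65129948-65130456 in HD (fold 2.22), with summits 41 and 105 bp inside the upper end of the gene. The input expectation at RAB1A was the highest of all member peaks in each list, and its HD peak had a −log10 q of 1.43, near the lowest value in that list of 1.30. The depth-scaled ratio was 0.997 (0.609 to 1.65). RAB6A, which directs retrograde transport at the Golgi, had 22 ChIP fragments over its Ctrl summit against 4.63 expected from input, and 37 over its HD summit against 5.88 expected. Its summits, in the peaks at chr11:73761217-73761437 in Ctrl (fold 4.04) and chr11:73761037-73761380 in HD (fold 5.27), lay 227 and 159 bp upstream of the nearest annotated start. The depth-scaled ratio of 1.20 (0.688 to 2.13) was the highest of the 14 members in both lists and its interval includes 1. RAB1B, RAB6B, RAB6C and RAB6D were marked in neither list.

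RAB3A, RAB4B, RAB22A and RAB40B completed the RAB genes in both lists. RAB3A, of regulated exocytosis, had 22 ChIP fragments over its Ctrl summit against 3.74 expected from input, and 23 over its HD summit against 5.51 expected. Its summits, in the peaks at chr19:18204059-18204363 in Ctrl (fold 4.79) and chr19:18204055-18204266 in HD (fold 3.53), lay 240 and 206 bp upstream of the nearest annotated start, with a depth-scaled ratio of 0.744 (0.396 to 1.40). The HD number is the lowest of any member in that list. RAB4B, of rapid recycling from early endosomes, had 25 ChIP fragments over its Ctrl summit against 4.40 expected from input, and 31 over its HD summit against 7.56 expected. The strongest peaks were at chr19:40777997-40778566 in Ctrl (fold 4.76) and chr19:40778035-40778264 in HD (fold 3.62), 175 and 157 bp upstream of the nearest annotated start, and a second HD peak at chr19:40778533-40778809 held 26 fragments. The depth-scaled ratio of RAB4B was 0.883 (0.504 to 1.56), and both strongest peaks also lie within 1 kb of MIA.

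RAB40B, whose product joins ubiquitin ligases, had 42 ChIP fragments over its Ctrl summit against 4.46 expected from input, and 44 over its HD summit against 6.64 expected. Its summits, in the peaks at chr17:82698708-82699035 in Ctrl (fold 7.77) and chr17:82698679-82698988 in HD (fold 5.65), lay 190 and 112 bp upstream of the nearest annotated start. RAB40B had the most Ctrl fragments and the highest Ctrl fold of any member, and its depth-scaled ratio was 0.746 (0.477 to 1.17). RAB22A, of early endosomes, had 34 ChIP fragments over its Ctrl summit against 5.16 expected from input, and 34 over its HD summit against 9.24 expected. The summits of the peaks at chr20:58309411-58309743 in Ctrl (fold 5.62) and chr20:58309459-58309682 in HD (fold 3.33) lay 126 and 148 bp upstream of the nearest annotated start, inside the tandem repeat printed above. Its depth-scaled ratio of 0.712 (0.429 to 1.18) was the lowest of the 14. When fragments were instead taken over the local input expectation, the ratio of RAB22A was 0.559 (0.337 to 0.927), the 1 interval of the 14 that excludes 1. The input expectation at RAB22A moved with this value, from 5.16 to 9.24 fragments, and its part in the result was not tested. The interval takes these expectations as exact, so their own counting error is left out.

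RAB genes marked in Ctrl alone numbered 10, and RAB12 had the highest −log10 q of the 20 members in Ctrl alone. RAB12, which acts on traffic between recycling endosomes and lysosomes, had 37 fragments against 4.86 expected from input (fold 6.42, chr18:8609246-8609447), with its summit 111 bp outside the gene. RAB30, of the Golgi, had 31 fragments, RAB36 29, and RAB34, which acts in the assembly of cilia, 26. The recycling endosome gene RAB11A had 24 fragments and its paralogue RAB11B was marked in neither list. RAB2B, of traffic between the endoplasmic reticulum and Golgi, had 21 fragments at a peak shared with TOX4, and RAB2A was marked in neither list. RAB5IF had 22 fragments. RAB5B had 17 and the late endosome gene RAB7A had 16, close to the lowest called number of 15. The 3 genes of early endosome fusion thus differed in their marks, with RAB5B in Ctrl alone, RAB5C in HD alone and RAB5A in neither. Scaled to HD depth, the RAB5B number is 23.9 (13.9 to 38.2), against a lowest callable number there of 20. Its missing HD mark therefore cannot be told from counting error.

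In HD alone, 2 RAB genes were marked, RAB5C and RAB40C. RAB5C had 42 fragments against 7.03 expected from input (fold 5.15, chr17:42154962-42155233), with its summit 120 bp upstream of the start. RAB40C had 36 fragments against 5.51 expected from input (fold 5.41, chr16:589571-590052), with its summit 178 bp upstream of the nearest start. RAB40C carries 20 runs of at least 3 G and none of C in the 250 bases shown, and its relative RAB40B, marked in both, carries 10 and 5. The other 46 RAB genes, RAB1B, RAB2A and RAB3B among them, were marked in neither list.

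**Figure D2:**
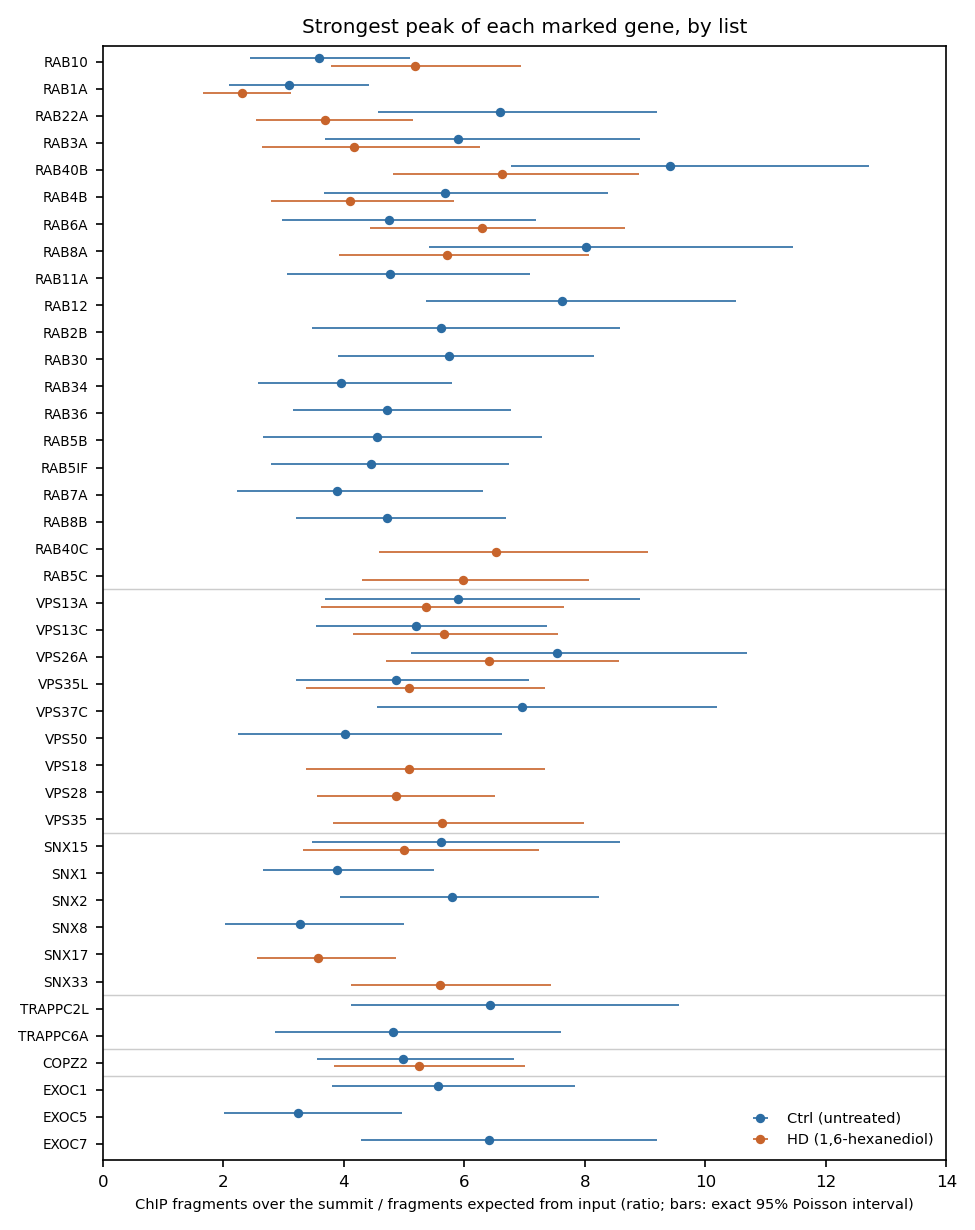
ChIP fragments over the summit divided by the fragments expected from input (horizontal axis, ratio) at the strongest peak of each of the 41 marked trafficking genes (vertical axis, grouped by family), in Ctrl (blue) and HD (orange). Bars are exact 95% Poisson intervals, which cover counting error only. Ctrl ratios run from 3.09 at RAB1A to 9.41 at RAB40B, HD ratios from 2.31 at RAB1A to 6.63 at RAB40B; RAB1A is lowest and RAB40B highest in each list.

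Among the VPS genes, the lipid transfer proteins, retromer and retriever supplied the 4 genes marked in both conditions. VPS13A and VPS13C encode long proteins that bridge membranes and move lipids between them. VPS13A had 22 ChIP fragments over its Ctrl summit against 3.74 expected from input, and 30 over its HD summit against 5.60 expected. Its summits, in the peaks at chr9:77177250-77177565 in Ctrl (fold 4.79) and chr9:77177193-77177542 in HD (fold 4.49), lay 148 and 231 bp upstream of the nearest annotated start, with a depth-scaled ratio of 0.971 (0.541 to 1.77). VPS13C had 31 ChIP fragments over its Ctrl summit against 5.97 expected from input, and 46 over its HD summit against 8.12 expected. Its summits, in the peaks at chr15:62060437-62060641 in Ctrl (fold 4.55) and chr15:62060351-62060636 in HD (fold 4.98), lay 93 and 63 bp upstream of the nearest annotated start, with a ratio of 1.06 (0.656 to 1.72). Both ratios are close to 1, and VPS13B and VPS13D were marked in neither list.

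Retromer, which returns cargo from endosomes to the Golgi or the surface, was split between the lists. VPS26A had 31 ChIP fragments over its Ctrl summit against 4.11 expected from input, and 46 over its HD summit against 7.17 expected. Its peaks were at chr10:69123882-69124268 in Ctrl (fold 6.18) and chr10:69123937-69124225 in HD (fold 5.53), with summits 91 and 139 bp outside the lower end of the gene, and the depth-scaled ratio was 1.06 (0.656 to 1.72). VPS35, the scaffold of retromer, was marked in HD alone, with 31 fragments against 5.51 expected from input (fold 4.69, chr16:46689138-46689662). Its summit lay 92 bp upstream of the start, at a peak shared with ORC6, and VPS26B and VPS29 were marked in neither list. VPS35L, the corresponding subunit of the retriever complex, had 27 ChIP fragments over its Ctrl summit against 5.56 expected from input, and 28 over its HD summit against 5.51 expected. The summits of the peaks at chr16:19555326-19555549 in Ctrl (fold 4.23) and chr16:19555387-19555645 in HD (fold 4.25) lay 248 and 235 bp upstream of the nearest annotated start, and the depth-scaled ratio was 0.738 (0.419 to 1.30).

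The other VPS marks lay in 1 list each. VPS37C, of the ESCRT-I complex that sorts ubiquitinated cargo, was marked in Ctrl, with 26 fragments against 3.74 expected from input (fold 5.62, chr11:61161429-61161822) and its summit 292 bp outside the upper end. VPS50, of the EARP tethering complex, had 15 fragments in Ctrl, the lowest number that was called, at a peak shared with HEPACAM2. VPS28, also of ESCRT-I, was marked in HD, with 45 fragments against 9.24 expected from input (fold 4.36, chr8:144428440-144428675) and its summit 29 bp outside the upper end, at a peak shared with TONSL. VPS18, of the HOPS and CORVET tethers, had 28 fragments in HD. The ESCRT genes of the set thus had 1 mark in each list and the HOPS and CORVET genes 1 in HD. No complex was marked throughout. The 25 VPS genes in neither list include VPS4A, VPS4B and VPS8.

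Sorting nexins were marked mostly in 1 list. SNX1 and SNX2, which bend endosomal membrane for retromer cargo, were both marked in Ctrl alone. SNX2 had 31 fragments against 5.35 expected from input (fold 4.99, chr5:122774777-122775037), with its summit 89 bp upstream of the start, and SNX1 had 32 fragments against 8.23 expected. Their partners SNX5, SNX6 and SNX32 were marked in neither list. SNX33, which acts in endocytosis and membrane remodelling, had the highest −log10 q of the members in HD alone, with 47 fragments against 8.40 expected from input (fold 4.94, chr15:75661167-75661398). The summit lay 1054 bp inside the gene from its finish and the peak's nearest edge was 903 bp inside; it is no longer marked when the summit itself must lie within 1 kb. SNX17, an adaptor for retriever cargo, had 40 fragments in HD at a peak shared with EIF2B4.

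SNX15 and SNX8 were cases where the marks of a gene were at different places. SNX15 had 21 fragments in Ctrl against 3.74 expected (fold 4.58, chr11:65027333-65027533), with the summit 17 bp upstream of its start. In HD it had 28 fragments against 5.60 (fold 4.20, chr11:65040863-65041148) beyond its finish, at a peak shared with SAC3D1 and 13.3 kb from the Ctrl peak. SNX15 therefore counts as marked in both without a common site, and its ratio of 0.949 (0.520 to 1.76) compares different peaks. SNX8 had 21 Ctrl fragments at its outer end, shared with EIF3B. An inner start of SNX8 had peaks in both lists, with 36 fragments in Ctrl and 56 in HD, 85 and 67 bp upstream. The 24 sorting nexins in neither list include SNX3, SNX4 and SNX5.

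Of the coats, COPZ2 alone was marked. COPZ2 encodes a zeta subunit of COPI and had a peak at each end of the gene in both conditions. The upper one had 39 Ctrl fragments against 7.82 expected (fold 4.50, chr17:48048070-48048368) and 46 HD fragments against 8.77 (fold 4.66, chr17:48048034-48048727), with summits 3 bp apart and a depth-scaled ratio of 0.840 (0.536 to 1.32). It is shared with NFE2L1 and lies 10454 bp from the start of COPZ2 in the promoter table. The lower one held 32 and 44 fragments at chr17:48025106-48025400 and chr17:48025123-48025345. COPZ1, its paralogue, and COPA, COPB1 and COPB2 were marked in neither list. All 7 COPII genes, SEC23A, SEC23B and SEC23IP among them, were without a mark.

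Exocyst and TRAPP genes were marked at their ends in Ctrl alone. EXOC7 and EXOC1 encode the exocyst subunits that bind the plasma membrane. EXOC7 had 29 fragments against 4.53 expected from input (fold 5.37, chr17:76103728-76103994), with its summit 86 bp upstream of the start. EXOC1 had 32 fragments against 5.76 expected from input (fold 4.84, chr4:55853499-55853714), with its summit 16 bp upstream. EXOC5 had 21 fragments at a peak shared with AP5M1. The nearest HD peaks were 161 kb from EXOC7, 582 kb from EXOC1 and 1029 kb from EXOC5. Scaled to HD depth, the EXOC5 number is 29.5 (18.3 to 45.1), against a lowest callable number there of 28. The missing HD mark of EXOC5 therefore cannot be told from counting error. TRAPP, which activates RAB1, was marked at TRAPPC2L, with 24 fragments at a peak shared with GALNS, and at TRAPPC6A, with 18 at a peak shared with BLOC1S3.

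Gene ends miss a further start inside TRAPPC3 and EXOC6. TRAPPC3, a core TRAPP subunit, had peaks over an inner annotated start in both conditions, with 30 fragments in Ctrl and 39 in HD, 96 and 109 bp upstream of it. EXOC6 had 25 fragments in Ctrl, 76 bp upstream of an inner start. The HD count of 0 for TRAPP genes therefore holds for gene ends and not for every annotated start. Apart from these, RAB31 had a peak of 24 fragments in Ctrl far from its annotated start. Of the genes at neither end, TRAPPC1, TRAPPC2 and TRAPPC2B, and EXOC1L, EXOC2 and EXOC3, are those with the lowest numbers in their symbols.

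Between the conditions, the depth-scaled signal at the 14 genes in both lists did not differ beyond counting error. Scaled by input, the RAB22A interval given above excludes 1. It is 1 of 14 such intervals and leaves out the counting error of the input. The depth-scaled HD to Ctrl ratio ran from 0.712 at RAB22A to 1.20 at RAB6A, with a median of 0.916, and was below 1 at 10 genes and above 1 at 4. All 14 intervals include 1. Over all 1030 protein-coding genes in both lists, the median was 0.931, and the interval lay below 1 at 18 genes and above 1 at 1. The median of the trafficking genes is thus close to that of all genes in both lists. The intervals are wide, from 0.477 to 1.17 at RAB40B, the gene with the most Ctrl fragments, so changes of moderate size were not detectable at this depth.

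**Figure D3:**
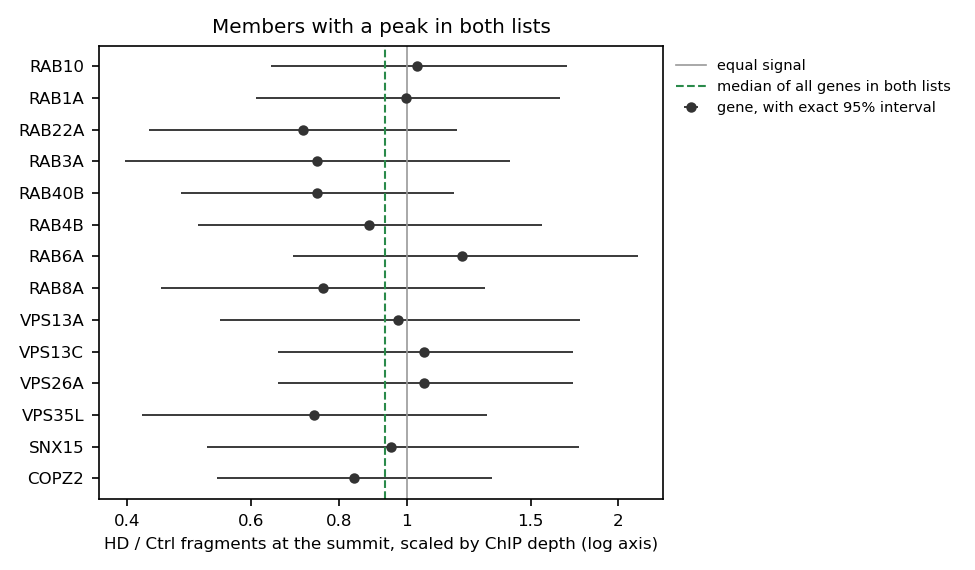
HD to Ctrl ratio of fragments at the summit, scaled by ChIP depth (horizontal axis, logarithmic), for the 14 trafficking genes with a peak in both lists. Points are genes, bars are exact 95% intervals for counting error, the solid line marks a ratio of 1 and the dashed line the median of all 1030 genes in both lists, 0.931. Every bar crosses 1.

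Genes marked in Ctrl alone had a lower median Ctrl enrichment than genes marked in both, with wide overlap. The median ratio of fragments to the input expectation was 4.74 in the 20 Ctrl-only members and 5.65 in the 14 members in both lists, with ranges of 3.24 to 7.62 and 3.09 to 9.41. Over all protein-coding genes these medians were 5.09 and 5.56. In HD the order at members was the other way, with 5.60 in the 7 HD-only members and 5.22 in the 14. Over all protein-coding genes it was not, with HD medians of 4.72 in HD-only genes and 5.08 in genes in both lists. A gene in 1 list has no value in the other list, so how far its signal differed there is not known, and its value in the list that marked it was selected to be high enough for a call. Each number was also scaled to the depth of the other list. Its low bound exceeded the lowest callable number there at 9 of 20 Ctrl-only members and 4 of 7 HD-only members. At the other members in 1 list, the missing mark cannot be told from counting error.

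Taken as peaks, 14 of the 35 Ctrl peaks at members (40.0%, 23.9 to 57.9) overlapped an HD peak, against 46.3% of all Ctrl peaks at protein-coding gene ends. Of the 23 HD peaks at members, 15 (65.2%, 42.7 to 83.6) overlapped a Ctrl peak, against 63.8%. Both intervals take in the share of all gene ends. In strength the member peaks also resembled other gene ends, with a median fold of 4.55 in Ctrl (4.51 at all gene ends) and 4.60 in HD (4.25). A second protein-coding gene lay within 1 kb of 8 of the 35 Ctrl peaks (22.9%) and 6 of the 23 HD peaks (26.1%), against 21.5% and 21.8%.

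Member peaks sat mainly at the start end of the gene span, mostly just upstream of an annotated start. Of 29 Ctrl-marked genes with a known strand, all 29 were marked at that end, and COPZ2 also at the finish. Of 16 such HD-marked genes, 14 (87.5%) were marked at the start end and 3 at the finish, COPZ2 counting in both. Over all marked protein-coding genes with a known strand, the share at the start end was 96.1% in Ctrl and 94.5% in HD. At SNX8 and COPZ2 the Ctrl summit at that end lay 39656 and 10454 bp from the only start listed. The summit lay within 500 bp of an annotated start in 27 of 29 Ctrl genes, 25 of them upstream, with a median position of −96 bp and a range from −284 to 154 bp. In HD this held for 13 of 16 genes, all 13 upstream, with a median of −157 bp and a range from −241 to −63 bp. COPZ2 and SNX8 in Ctrl, and COPZ2, SNX15 and SNX33 in HD, lay farther away. Summits within 250 bp of a gene end made up 82.9% of member peaks in Ctrl and 73.9% in HD. At all protein-coding gene ends these shares were 78.6% and 77.2%. Just inside the 1 kb window were SNX33 in HD (903 bp from the end) and COPZ2 (767 bp in Ctrl, 822 bp in HD). Just outside it were RAB26 (1266 bp in Ctrl, 1046 bp in HD) and RAB37 (1134 bp in Ctrl).

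**Figure D4:**
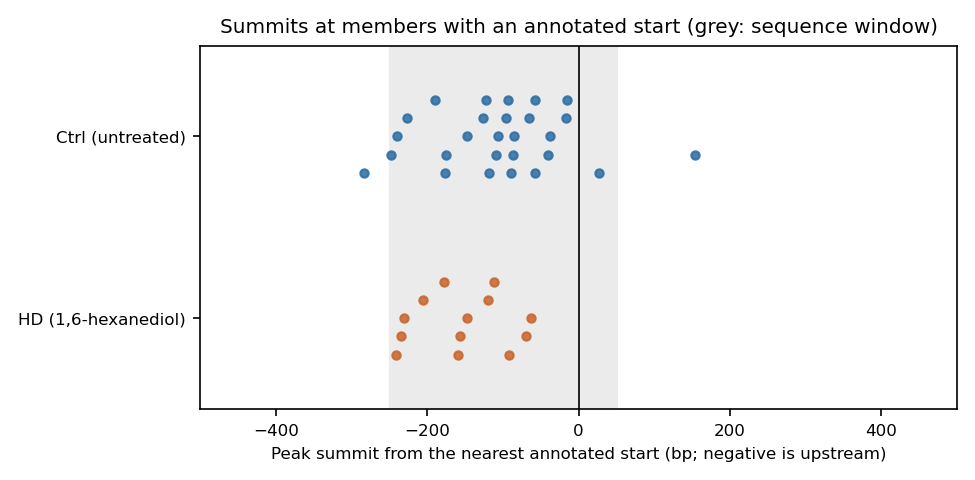
Position of the strongest peak's summit relative to the nearest annotated start (horizontal axis, bp, negative is upstream) for marked trafficking genes whose summit lay within 500 bp, 27 in Ctrl (blue) and 13 in HD (orange); vertical offsets within a row only separate points. Grey marks the window of 250 bases before to 50 after the start. All but 2 Ctrl summits and all HD summits lie upstream.

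The start windows were searched for 4 runs of at least 3 G, or 3 C, with loops of 1 to 7 bases, on both strands, from 250 bases before to 50 after each annotated start. A start was listed for 138 of the 174 members. The motif was found in 54 of these (39.1%) and in 5749 of 15812 protein-coding genes (36.4%). Marked members held it in 15 of 33 cases (45.5%, 28.1 to 63.6) and unmarked members in 39 of 105 (37.1%, 27.9 to 47.1), against 993 of 2304 marked protein-coding genes (43.1%). By condition, 3 of 12 members in both lists, 9 of 17 in Ctrl alone and 3 of 4 in HD alone held it. These counts take a motif at any listed start. At COPZ2, RAB30 and SNX33 no peak lay over the start with the motif. Of members with a start under a peak, 11 of 30 in Ctrl and 5 of 15 in HD held a motif at such a start. With loops of up to 12 bases the counts by condition became 7 of 12, 9 of 17 and 4 of 4, with RAB22A, RAB6A, VPS13A, SNX15 and RAB5C added. Over all protein-coding genes the longer loops raised the share to 51.5%. Among marked genes the share was then 61.8% of protein-coding genes and 60.6% of members. For the counts by condition, no share over all genes was computed. The intervals are wide, and a motif in the window is a description of the letters, not of a folded structure.

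Motifs differed between relatives in the sequences printed above. RAB8B held a motif of G runs at −106 to −86 and another of C runs at −59 to −35, with its Ctrl summit at −109. RAB40C held a motif from −72 to −33, VPS35 from −69 to −29, VPS35L from −50 to −20 and EXOC1 a motif of C runs from −157 to −128. In RAB10 the motifs lay at −172 to −147 (C runs) and −37 to −18 (G runs). Under Ctrl peaks lay 12 starts with a motif, of 11 members. Over these starts the summit was a median of 78.5 bp from the middle of the motif, with a range from 0 to 213 bp. EXOC7 entered with 2 starts. In HD, at 5 starts of 5 members, the median was 43 bp, with a range from 11 to 200 bp. The Ctrl starts include an inner start of EXOC6, and those of both lists include the inner start of SNX8. Summit and motif were therefore close at some genes and about a fragment length apart at others.

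A list of 150 other trafficking genes, covering ARF proteins, COPII partners, clathrin adaptors, SNAREs, ESCRT, RAB regulators and Golgi tethers, was set beside the members. In this list 22 genes (14.7%) were marked in Ctrl and 17 (11.3%) in HD, against the 10.9% and 8.11% of all protein-coding genes. Of the 150, 9 were marked in both, 13 in Ctrl alone and 8 in HD alone. The shares of all protein-coding genes were 5.2% in both, 5.7% in Ctrl alone and 2.92% in HD alone. The 9 in both were ARF4, ARFGAP3, SAR1A, STX5, VAMP1, SNAP29, NAPA, CHMP5 and GOLGA2. SAR1A, the GTPase that starts COPII coat assembly, had 36 fragments in Ctrl and 39 in HD, while the COPII coat genes of the set had no mark. SNARE and fusion genes had 6 of 40 marked in Ctrl and 5 in HD. STX5, a SNARE of the Golgi, had 30 fragments in Ctrl and 36 in HD, and SNAP29, of autophagosome fusion, had 41 and 48.

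RAB regulators were marked in Ctrl alone. Of 31 such genes, 5 were marked in Ctrl and 0 in HD. The 0 allows a share of up to 9.68%, so it cannot be told from the 8.11% of all protein-coding genes. These were GDI2, which extracts inactive RAB proteins from membranes, with 24 fragments, RAB11FIP1, an effector of RAB11, with 28, RABIF with 17, and the GTPase-activating proteins TBC1D5 with 24 and TBC1D10A with 25. ARF genes and their regulators had 4 of 11 marked in each list. ARF6 and GBF1 were marked in Ctrl alone, and ARFGAP1 and ARFGAP2 in HD alone. Clathrin and adaptor genes had 3 of 24 in Ctrl (CLTC, AP2A1 and AP3M1) and 4 in HD (AP1S1, AP3S1, AP5Z1 and GGA1), with no gene in both. That allows a share of up to 12.5% in both, so it cannot be told from the 5.2% of all protein-coding genes. The remaining marked genes were TFG, STX6 and GOSR2 in Ctrl alone, and PREB and NAPG in HD alone.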

How the data were processed

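U2OS cells, with or without 1,6-hexanediol, were crosslinked with 1% formaldehyde for 10 min before BG4 ChIP-seq, per the labels' protocols. Bowtie2 2.5.0, SAMtools, MACS2 2.2.7.1, FastQC 0.11.9 and hg38 are named in the submitters' processing notes. Settings, duplicate handling and read pairing are not named there.

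From the authors come 2 deposited MACS2 lists, 3507 peaks for Ctrl and 2269 for HD, tied by the labels to both BG4 libraries. Each peak has a fold (a ratio over the caller's local background), a −log10 p and a −log10 q, all as deposited by the authors. The lowest −log10 q was 1.31 and 1.30.

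Fragments over each summit and the input expectation were recovered from fold, taken as (pileup + 1) / (expectation + 1), and the upper Poisson tail behind −log10 p. A whole number of fragments matched within 0.01 for 3501 of 3507 and 2262 of 2269 peaks, with the closest number kept at the 4.93% and 4.10% of peaks where several matched. The 6 and 7 unmatched peaks were not at members. Depth is per Mb of the caller's genome size. Amplified reads are not independent molecules, so intervals cover counting error only. Recovery, marking and motif search were tested on simulated data.

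Genes and starts came from RefSeq tables of GRCh38.p14, with 19821 protein-coding genes on autosomes and X, of which 15812 had a start. A peak counted where at least 1 bp lay within 1 kb of a gene end, and peaks of the lists overlapped when sharing 1 bp. Groupings by paralogue and complex, and the repeat search, were drawn up after values had been seen. Members and lists were chosen with earlier results of these data known. Every marked member is named, with full values for those in both lists and for the 5 per list with the highest −log10 q among those in 1 list, and unmarked members by the 3 lowest numbers of each family. Members named as unmarked relatives were chosen after their values were seen. No test was run, since each condition has 1 list. Windows, thresholds, list length, overlap, scaling and motif loops were varied as alternatives. Computations used Python 3.11.15, numpy 2.4.6, pandas 2.3.3, scipy 1.17.1 and matplotlib 3.10.9.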

Additional observations from a re-analysis of the deposited data

How the results depend on the processing

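No paired analysis was possible because each condition has 1 peak list and no value per library. Over 7 alternatives, members marked ranged from 23 to 36 in Ctrl (34 as reported), from 15 to 22 in HD (21) and from 11 to 15 in both lists (14). The low of 15 in HD is of the 138 members with a listed start (10.9%). Where all 174 members were counted, the low in HD was 19. With the same number of peaks in each list, the 2172 with the highest −log10 q, members in Ctrl alone numbered 12 in place of 20, those in Ctrl 23 (13.2%, against 7.83% of all protein-coding genes), and RAB10, RAB1A and RAB6A passed from both lists to HD alone. With the start window alone, which only 138 members have, members in HD alone numbered 3 in place of 7, since VPS18, VPS28 and SNX17 have no listed start and the SNX33 peak lies at its finish. The share of Ctrl peaks found in HD ran from 37.1% to 45.8%, and the median HD to Ctrl ratio from 0.871 (fragments scaled by the local input expectation) to 0.916 (scaled by ChIP depth). Scaling by mean coverage, taking the strongest peak per gene and allowing loops of up to 12 bases (60.6% of marked members with a motif in place of 45.5%) were added after seeing the data. Depth limits peaks near 15 fragments in Ctrl and 20 in HD.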

Other observations

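Chromosome 15 held 10 members, of which 4 were marked in Ctrl (RAB8B, RAB11A, SNX1 and VPS13C) and 3 in HD (VPS13C, VPS18 and SNX33). Of all protein-coding genes on chromosome 15, 14.8% were marked in Ctrl and 9.97% in HD. Chromosome 17 had 4 of 10 members marked in Ctrl and 3 in HD, where 15.4% and 9.85% of its protein-coding genes were marked. Chromosome 19 had 4 of 9 in Ctrl and 3 in HD, where these shares were 10.6% and 8.23%. Chromosome 1 held 15 members and none was marked at an end, where 9.13% of its protein-coding genes were marked in Ctrl and 7.13% in HD. The 9 members on chromosome 6 and the 9 on the X chromosome had no mark either. Of 1042 protein-coding genes on chromosome 6, 57 (5.47%) were marked in Ctrl and 26 in HD, and of 848 on the X chromosome, 7 (0.825%) and 5 (0.590%). These counts are descriptions of small numbers and were not tested.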
